A study of Homo sapiens with 12 samples.

Results

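The genes described are YAP1 and WWTR1, which encode the transcriptional co-activators YAP and TAZ, and 8 genes that they are known to regulate: CCN1, CCN2, ANKRD1, AMOTL2, AJUBA, LATS2, NT5E and AXL. The 10 were chosen by name from the pathway, with earlier results of these data known. They were matched by gene name in the count tables of both cell lines. All 10 were found among 38997 features present in both tables. Each was measured in 12 poly(A) RNA libraries from 2 human uveal melanoma cell lines: 92.1 treated with VE-822, 92.1 treated with DMSO, MP38 treated with VE-822 and MP38 treated with DMSO, with 3 libraries in each of the 4 groups. VE-822 (berzosertib) inhibits ATR, the kinase that answers stalled replication forks, and DMSO is its solvent. Treatment lasted 72 hours in every group. The VE-822 dose was set separately for each line so that about 40% of cells stayed viable, so dose and line cannot be separated. The labels give no driver mutation for either line. They also leave unsaid if replicate libraries are separate cultures, and without that the p-values cover no more than the spread among these libraries, part or all of which may be technical.

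YAP and TAZ do not bind DNA themselves. They enter the nucleus, pair with the DNA-binding TEAD factors and switch on genes of growth, adhesion and matrix. The Hippo kinase cascade restrains them: MST kinases activate LATS kinases, and LATS kinases phosphorylate YAP and TAZ, which are then kept in the cytoplasm or degraded. In uveal melanoma, active Gq proteins (GNAQ, GNA11) are known to drive YAP into the nucleus through the exchange factor TRIO and the small GTPases RHOA and RAC1. Since this control acts on the proteins, transcript levels of YAP1 and WWTR1 measure only the supply of message, and target genes are commonly read as the output.

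TEAD factors recognise a short core, GGAATG, or CATTCC when read on the other strand. RefSeq promoter windows on GRCh38.p14, from 250 bases before to 50 bases after a start, were found for 9 of the 10 genes, in 13 windows. The core was present, on either strand, in at least 1 window of 7 of those 9 genes (YAP1, CCN2, ANKRD1, AMOTL2, AJUBA, LATS2 and AXL) and in 7 of the 13 windows, 53.8%, against 14% of 35116 windows of all genes. The 3 stretches below were chosen because CCN2 and ANKRD1 had the largest changes in MP38 and the most cores, and because AMOTL2 was called higher in both lines. Each gives, 5′ to 3′ on the gene's own strand, the bases before the start; capitals mark the core. They lie at chr6:131951373-131951622 (minus strand, CCN2), chr10:90921088-90921337 (minus strand, ANKRD1) and chr3:134374448-134374697 (minus strand, the second of the 2 AMOTL2 windows).
CCN2: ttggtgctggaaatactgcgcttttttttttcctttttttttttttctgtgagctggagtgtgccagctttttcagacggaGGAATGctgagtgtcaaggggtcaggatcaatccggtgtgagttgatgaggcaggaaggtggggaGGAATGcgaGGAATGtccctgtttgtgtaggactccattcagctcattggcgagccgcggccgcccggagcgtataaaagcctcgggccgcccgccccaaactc
ANKRD1: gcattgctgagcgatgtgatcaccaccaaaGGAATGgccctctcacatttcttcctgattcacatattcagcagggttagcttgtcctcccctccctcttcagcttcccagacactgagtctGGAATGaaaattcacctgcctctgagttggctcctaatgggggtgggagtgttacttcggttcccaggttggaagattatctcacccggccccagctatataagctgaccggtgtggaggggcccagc
AMOTL2: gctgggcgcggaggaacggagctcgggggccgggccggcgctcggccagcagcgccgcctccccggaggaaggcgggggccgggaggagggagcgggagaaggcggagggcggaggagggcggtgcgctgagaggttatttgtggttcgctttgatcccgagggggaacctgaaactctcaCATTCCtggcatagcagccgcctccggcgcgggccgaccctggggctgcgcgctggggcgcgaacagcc
CCN2 held 3 cores, beginning 169, 104 and 95 bases before the start, a number reached by 0.128% of all windows. ANKRD1 held 2, at 220 and 128 bases before the start, where 1.37% of all windows held 2 or more, and between them a TGATTCA, a form of the AP-1 site TGANTCA (its reverse complement has the same form, and the matches overlap no core) that 7.71% of all windows contain. AMOTL2 held its core in the CATTCC reading, 69 bases before the start. A match is a description of the letters and not a measured site.

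Total counts were 112374503 to 137664800 in 92.1 and 54415628 to 63638976 in MP38. Levels are given in CPM, reads of a gene relative to all reads of its library, on 1 scale for all 12 libraries, and genes are compared with each other only in the deposited FPKM, which are per length. A gene is said to have risen or fallen when its adjusted p was under 0.05 in edgeR's quasi-likelihood test, with Benjamini-Hochberg adjustment over all genes tested. All 7 melanocyte markers checked (MITF, SOX10, PMEL, MLANA, TYR, TYRP1, DCT) were at 1 CPM or more in all 4 groups. One library stood apart: DMSO library 3 of 92.1 differed from the other DMSO libraries of that line by a chi-square per gene of 83 and 83.7, against 2.31 to 7.55 for every other pair of replicates, and calls of the 10 genes, and list counts of the 92.1 response, that changed without it are given both ways. In bulk RNA, fewer cells of a type and less RNA per cell cannot be told apart.

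The co-activators themselves behaved unlike each other. YAP1 (ENSG00000137693.14, chromosome 11, 102110447 to 102233424) stayed near one level in all 12 libraries. It had 191, 188 and 181 CPM in 92.1 with VE-822, against 197, 193 and 179 CPM in 92.1 with DMSO. In MP38 it had 158, 151 and 152 CPM with VE-822, against 155, 158 and 155 CPM with DMSO. The treated and untreated libraries overlapped in each line. The log2 fold change was -0.06 in 92.1 (95% interval -0.18 to 0.05, adjusted p = 0.354) and -0.03 in MP38 (-0.11 to 0.05, adjusted p = 0.514). Without DMSO library 3 of 92.1 the value in that line was -0.13 with an adjusted p of 0.00123, and its sign turned under other scalings.

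WWTR1, the gene of TAZ (ENSG00000018408.15, chromosome 3, 149517235 to 149736714), was abundant in MP38 and scarce in 92.1. MP38 had 515, 518 and 524 CPM with VE-822, against 351, 355 and 341 CPM with DMSO. In 92.1 the levels were 1.81, 2.06 and 2.16 CPM with VE-822, against 0.651, 0.531 and 0.894 CPM with DMSO. Every treated library was above every untreated library of its line, and the highest 92.1 library stood far below the lowest MP38 library. The values of 92.1 rest on 232 to 266 reads per library with VE-822 and 59 to 103 with DMSO. WWTR1 rose by 0.57 ± 0.037 on the log2 scale in MP38 (SE, n = 3 in each group; edgeR adjusted p = 7.89e-11) and by 1.49 ± 0.195 in 92.1 (edgeR adjusted p = 0.000465).

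In the deposited FPKM, a per-length scale on which the 2 transcripts can be compared, WWTR1 supplied 0.809% ± 0.091 of the summed YAP1 and WWTR1 message in 92.1 with VE-822 and 0.277% ± 0.088 with DMSO (SD, n = 3 each). In MP38 it supplied 71.8% ± 0.565 with VE-822 and 62.8% ± 0.34 with DMSO. The sum of the 2 transcripts was 28.3 ± 0.244 FPKM in 92.1 with VE-822 and 28 ± 1.28 FPKM with DMSO, and 90.6 ± 1.41 FPKM in MP38 with VE-822 and 71.9 ± 1.45 FPKM with DMSO. The 92.1 message was thus nearly all YAP1, while in MP38 WWTR1 exceeded YAP1 in all 6 libraries. An antisense transcript, WWTR1-AS1, overlaps the gene and had 66 to 100 reads per library in MP38 and 0 to 1 in 92.1; whether reads were counted by strand is not given in the sources used here.

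**Figure D1:**
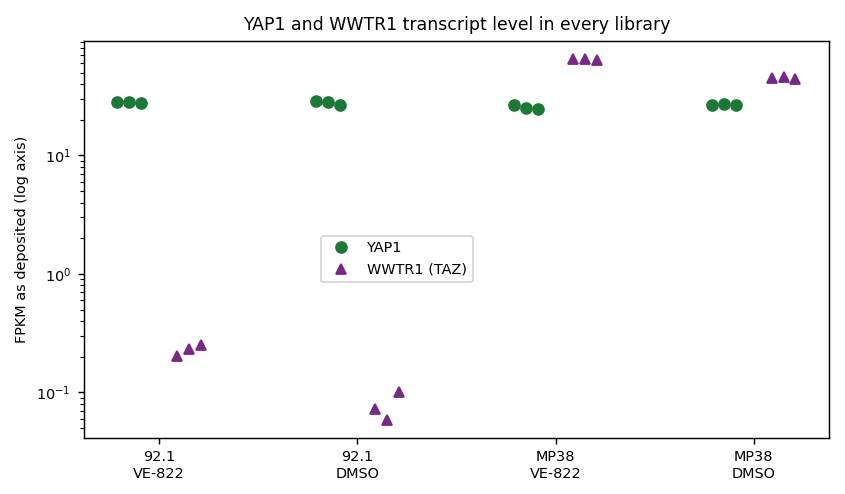
FPKM of YAP1 (circles) and WWTR1 (triangles) in each of the 12 libraries, on a log axis, by line and treatment. YAP1 lies in one narrow band throughout, while WWTR1 sits above it in MP38 and far below it in 92.1, with the VE-822 libraries above the DMSO libraries of the same line.

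The best-known targets of the pathway are the secreted matricellular proteins CCN1 (CYR61) and CCN2 (CTGF) and the ankyrin-repeat protein ANKRD1, which acts in the nucleus and in the muscle sarcomere. CCN1 (ENSG00000142871.18, chromosome 1, 85580761 to 85584589) had 38.8, 40.0 and 37.6 CPM in 92.1 with VE-822, against 13.9, 14.8 and 14.6 CPM with DMSO. It had 17.3, 18.2 and 18.7 CPM in MP38 with VE-822, against 6.75, 6.14 and 6.75 CPM with DMSO. The groups were well apart in both lines. It rose by 1.39 ± 0.057 on the log2 scale in 92.1 (SE; edgeR adjusted p = 9.14e-07) and by 1.46 ± 0.064 in MP38 (edgeR adjusted p = 1.50e-13).

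CCN2 (ENSG00000118523.6, chromosome 6, 131948176 to 131951372), whose promoter held the 3 cores shown above, gave a different picture in each line. In MP38 it had 6.10, 6.51 and 8.80 CPM with VE-822, against 1.79, 1.67 and 1.78 CPM with DMSO. In 92.1 it had 3.07, 2.76 and 3.10 CPM with VE-822, against 1.69, 1.63 and 3.78 CPM with DMSO. The MP38 groups were separate, whereas in 92.1 the highest value of all was DMSO library 3. CCN2 rose by 2.02 ± 0.132 in MP38 (edgeR adjusted p = 7.48e-11), and in 92.1 its log2 fold change was 0.29 ± 0.296 (edgeR adjusted p = 0.479). Without DMSO library 3 the 92.1 value was 0.78, with an adjusted p of 9.04e-06.

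ANKRD1 (ENSG00000148677.7, chromosome 10, 90912096 to 90921087) was scarce everywhere. It had 42, 43 and 29 reads in MP38 with VE-822 (0.727, 0.669 and 0.480 CPM), against 12, 6 and 9 reads with DMSO (0.178, 0.0903 and 0.131 CPM). In 92.1 it had 22, 29 and 21 reads with VE-822 (0.171, 0.225 and 0.191 CPM), against 9, 14 and 14 reads with DMSO (0.0862, 0.126 and 0.122 CPM). The groups did not overlap in either line. ANKRD1 rose by 2.21 ± 0.344 in MP38 (edgeR adjusted p = 1.66e-05), while in 92.1 the log2 fold change of 0.77 ± 0.294 did not pass (edgeR adjusted p = 0.0678); it passed in limma on log2(FPKM + 1), where the value was 0.06 with an adjusted p of 0.0271.

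AMOTL2, AJUBA and LATS2 feed back on the pathway. AMOTL2 is an angiomotin scaffold that holds YAP in the cytoplasm, LATS2 is one of the kinases that phosphorylate YAP and TAZ, and AJUBA is a LIM protein that restrains LATS kinases. LATS2 (ENSG00000150457.9, chromosome 13, 20973036 to 21061586) had 77.8, 74.8 and 75.0 CPM in 92.1 with VE-822, against 61.0, 59.5 and 59.9 CPM with DMSO. MP38 libraries had 27.7, 26.7 and 27.7 CPM with VE-822, against 13.95, 14.3 and 14.1 CPM with DMSO. The groups did not overlap in either line. It rose by 0.30 ± 0.0446 in 92.1 (edgeR adjusted p = 0.00099) and by 0.95 ± 0.0489 in MP38 (edgeR adjusted p = 1.86e-12). Its antisense neighbour LATS2-AS1 had 15 to 46 reads per library in 92.1 and 0 to 3 in MP38.

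AMOTL2 (ENSG00000114019.15, chromosome 3, 134355347 to 134375479) had 162, 156 and 152 CPM in 92.1 with VE-822, against 111, 107 and 119 CPM with DMSO. MP38 libraries had 25.9, 25.9 and 30.4 CPM with VE-822, against 21.0, 20.3 and 21.5 CPM with DMSO. All treated libraries lay above the untreated ones in each line. The increase was 0.44 ± 0.0545 in 92.1 (edgeR adjusted p = 0.000337) and 0.38 ± 0.0594 in MP38 (edgeR adjusted p = 1.57e-05). AJUBA (ENSG00000129474.16, chromosome 14, 22971177 to 22982551) had 97.2, 98.5 and 94.1 CPM in 92.1 with VE-822, against 58.8, 60.5 and 96.2 CPM with DMSO. In MP38 it had 12.6, 12.7 and 14.01 CPM with VE-822, against 13.1, 13.2 and 14.4 CPM with DMSO. Both pairs of groups overlapped, in 92.1 through DMSO library 3. AJUBA passed in neither line (0.39 ± 0.168 in 92.1, edgeR adjusted p = 0.101; -0.06 ± 0.0631 in MP38, edgeR adjusted p = 0.463). Without DMSO library 3 the 92.1 value was 0.63, with an adjusted p of 7.57e-12, and AJUBA was also called in 92.1 in the fit of all 12 libraries (adjusted p of 0.0145) and with no filter on low counts (0.00221).

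NT5E and AXL encode proteins of the cell surface. NT5E (CD73) is the ectoenzyme that turns extracellular AMP into adenosine, and AXL is the receptor tyrosine kinase bound by GAS6. NT5E (ENSG00000135318.12, chromosome 6, 85449584 to 85495791) had 23.6, 23.1 and 20.1 CPM in 92.1 with VE-822, against 6.60, 7.58 and 9.64 CPM with DMSO. The MP38 levels were 72.5, 72.4 and 72.5 CPM with VE-822, against 36.6, 35.8 and 35.3 CPM with DMSO. The lowest treated library was above the highest untreated one in both lines. It rose by 1.45 ± 0.134 in 92.1 (edgeR adjusted p = 6.75e-05) and by 1.01 ± 0.0381 in MP38 (edgeR adjusted p = 1.52e-14).

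AXL (ENSG00000167601.12, chromosome 19, 41219223 to 41261766) had 65, 105 and 83 reads in 92.1 with VE-822 (0.506, 0.815 and 0.755 CPM), against 8, 8 and 5 reads with DMSO (0.0766, 0.0720 and 0.0434 CPM). In MP38 it had 12.3, 13.5 and 14.1 CPM with VE-822, against 7.25, 6.76 and 7.29 CPM with DMSO. Again no treated library overlapped an untreated one. AXL rose by 3.38 ± 0.322 in 92.1 (edgeR adjusted p = 7.95e-05), and 0.645% of genes tested had a larger rise. Yet the treated 92.1 level remained below that of every MP38 library. In MP38 it rose by 0.89 ± 0.0698 (edgeR adjusted p = 1.11e-09).

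**Figure D2:**
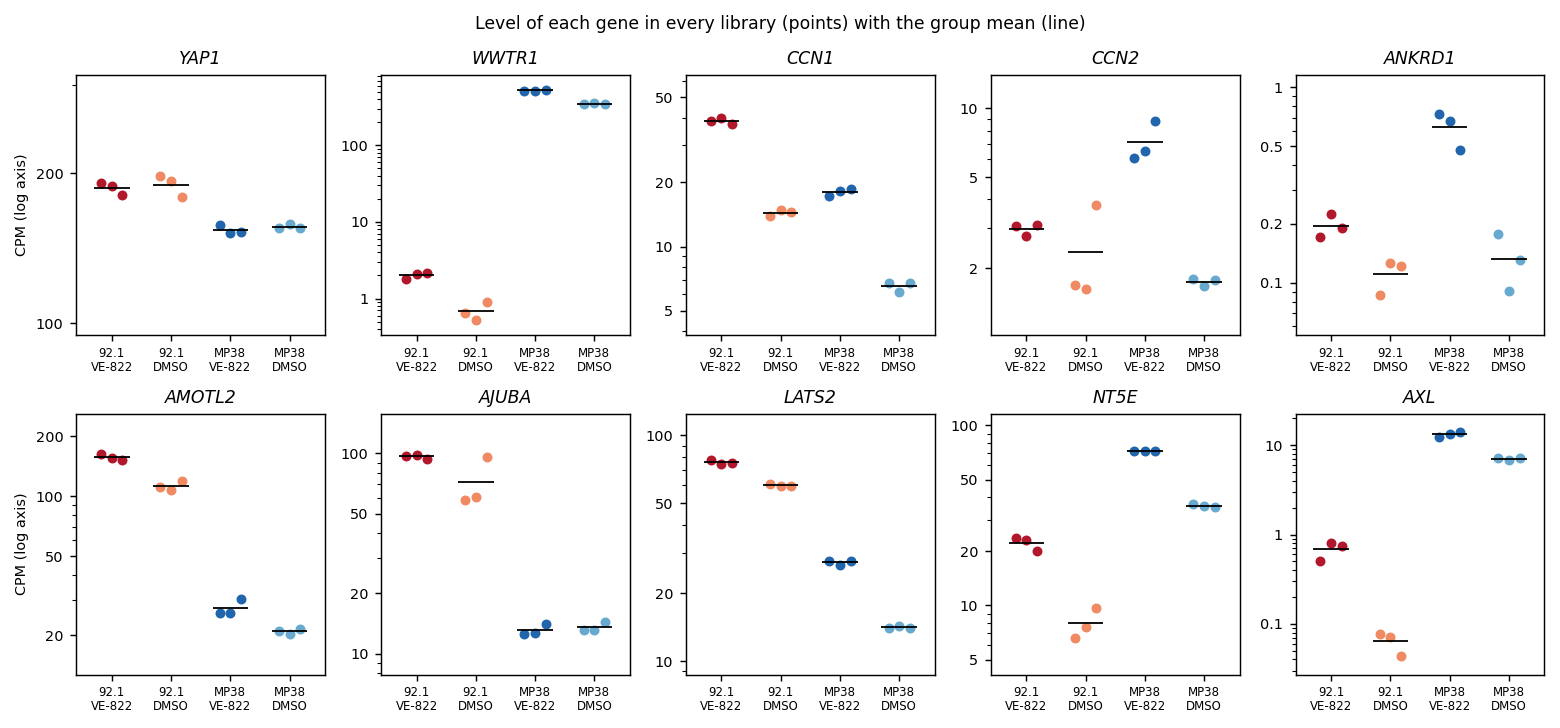
CPM of each of the 10 genes in every library (points, log axes that differ between panels) with the mean of each group of 3 (lines). CCN1, ANKRD1, LATS2, AMOTL2, NT5E, AXL and WWTR1 are higher with VE-822 in both lines without overlap. The third DMSO library of 92.1 is the highest of its group in WWTR1, CCN2, AMOTL2, AJUBA and NT5E.

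In MP38, 8 of the 10 genes rose, none fell (0 also at an unadjusted p under 0.05 and with DESeq2), and YAP1 and AJUBA did not pass. Among all 21415 genes tested in MP38, 52.3% were called in either direction, 26.9% higher and 25.4% lower. The median log2 fold change was 0.92 over the 10 genes and -0.01 over all genes tested. In 92.1, 6 rose, none fell (0 also at an unadjusted p under 0.05 and with DESeq2), and YAP1, CCN2, ANKRD1 and AJUBA did not pass. Of all 22943 genes tested in 92.1, 39.9% were called, 20.3% higher and 19.6% lower, and the medians were 0.61 over the 10 genes and 0.03 over all. Without DMSO library 3 of 92.1, 8 of the 10 were called higher and YAP1 lower, beside 13276 of 23816 genes called. The share of higher genes was thus above the background share in both lines. The 10 genes were chosen with earlier results of these data known, so this is a description and cannot test the list. Among called genes of 92.1, 4659 were higher and 4498 lower, against 5679 and 3539 with scaling by library size only, which moved the median of all genes to 0.100.

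Summed fibroblast and endothelial markers were higher with VE-822 in both lines, at low levels, but not every marker in a sum rose. In MP38, mean THY1 was 0.150 CPM with VE-822 and 0.278 CPM with DMSO (edgeR adjusted p = 0.104). The summed level of 8 fibroblast markers was 8.50 to 9 CPM in 92.1 with VE-822 and 5.22 to 6.40 CPM with DMSO, and 1.62 to 2.25 CPM in MP38 with VE-822 and 0.597 to 0.933 CPM with DMSO. Of the 8, DCN had no read in any DMSO library, and at most 2 reached a mean of 1 CPM in any group. The sum of 4 endothelial markers was 0.382 to 0.673 CPM in 92.1 with VE-822 and 0.0540 to 0.104 CPM with DMSO, and 2.85 to 3.64 CPM in MP38 with VE-822 and 1.97 to 2.72 CPM with DMSO. The leukocyte marker PTPRC was at 0.411 to 0.467 CPM in 92.1 with VE-822 and 0.278 to 0.538 CPM with DMSO, and at 0.156 to 0.248 CPM in MP38 with VE-822 and 0.0151 to 0.0592 CPM with DMSO. The MP38 values rest on 10 to 15 reads per library with VE-822 and 1 to 4 with DMSO, and PTPRC rose there by 2.48 ± 0.555 (edgeR adjusted p = 0.000778). That call was lost in limma on log2(FPKM + 1), where the value was 0.0275 (adjusted p = 0.191). NT5E, AXL, CCN1 and CCN2 are also made by fibroblasts and endothelial cells, and the part of such markers in their values was not tested.

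A wider set of 22 known YAP/TAZ targets held 7 of the genes above and 15 more. Of the 15, 9 rose, 2 fell and 4 did not pass in 92.1, with a median of 0.41 (9, 3 and 3, with a median of 0.37, without DMSO library 3), beside 20.3% of all genes called higher and 19.6% lower. In MP38, 7 rose, 7 fell and 1 did not pass, with a median of -0.10, beside 26.9% of all genes called higher and 25.4% lower. MYOF, a membrane fusion protein, had 24.2 ± 2.85 CPM in 92.1 with VE-822 and 5.39 ± 0.644 CPM with DMSO, and 64.5 ± 3.77 CPM in MP38 with VE-822 and 15.6 ± 0.462 CPM with DMSO (SD, n = 3 each). It rose by 2.13 ± 0.114 in 92.1 (edgeR adjusted p = 2.85e-06) and by 2.04 ± 0.0501 in MP38 (edgeR adjusted p = 5.55e-17). GADD45A, a growth arrest gene that is also a known DNA damage and p53 target, rose by 1.90 ± 0.100 in 92.1 and by 2.08 ± 0.084 in MP38 (edgeR adjusted p = 2.65e-06 and 4.02e-14). PTPN14, a phosphatase that binds and restrains YAP, fell by 0.31 on the log2 scale in MP38 (SE 0.0383, edgeR adjusted p = 8.76e-07) and rose by 0.18 ± 0.0438 in 92.1 (edgeR adjusted p = 0.0101). The 92.1 call was lost without DMSO library 2 (adjusted p of 0.0505), without VE-822 library 2 (0.0624) and with no filter on low counts (0.0945).

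**Figure D3:**
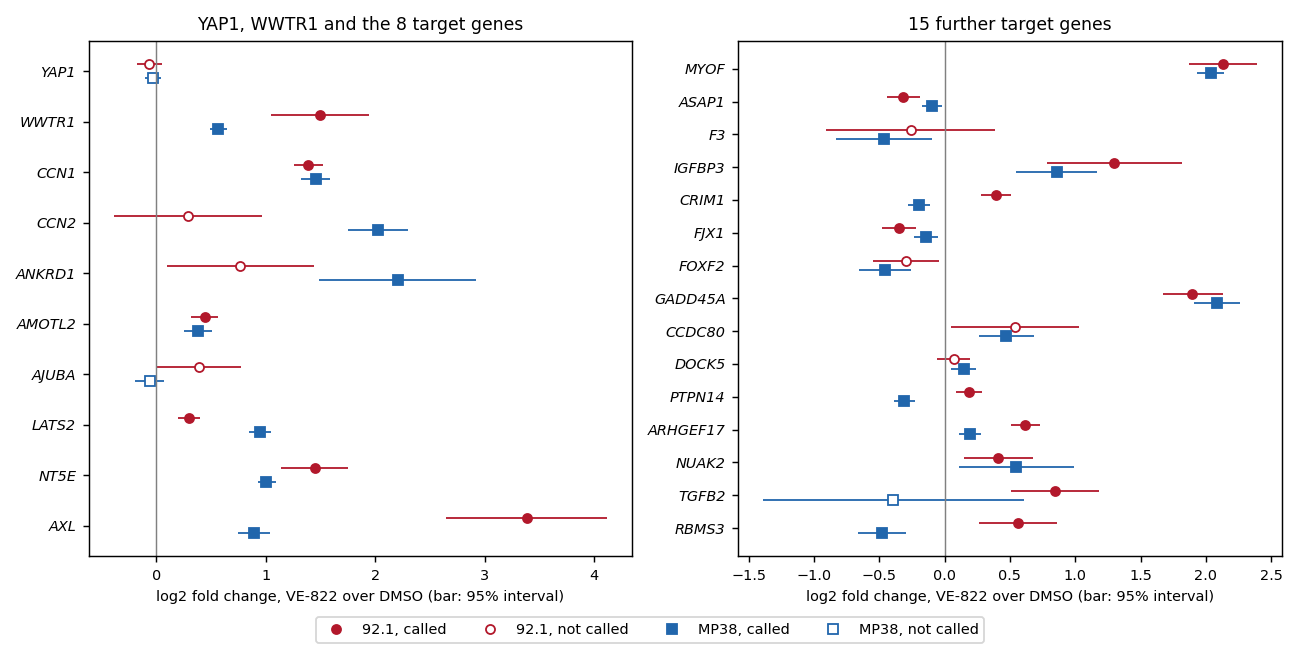
Log2 fold change of VE-822 over DMSO in 92.1 (circles) and MP38 (squares) for the 10 genes (left) and the 15 further targets (right), with 95% intervals; filled symbols passed the adjusted p of 0.05. On the left no filled symbol lies below 0; on the right MYOF and GADD45A stand near 2 in both lines and the other genes lie on both sides of 0.

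Upstream of YAP, the Hippo cascade and its scaffolds moved both ways. Of 21 genes listed, including AMOTL2, AJUBA and LATS2, 6 rose, 4 fell and 11 did not pass in 92.1 (8, 9 and 4 without DMSO library 3), and 8 rose, 7 fell and 6 did not pass in MP38, where the shares of all genes called were 39.9% in 92.1 and 52.3% in MP38. Their medians were -0.0049 in 92.1 and -0.0028 in MP38, near those of all genes. With scaling by library size only, STK3 and MOB1B, both lower in 92.1, lost their calls (edgeR adjusted p of 0.107 and 0.108). FRMD6 was then called higher in 92.1 (edgeR adjusted p = 0.0347). In limma on log2(FPKM + 1), STK3 and MOB1B were not called either (adjusted p of 0.186 and 0.178). AMOT, the founding angiomotin, had 111 ± 4.69 CPM in 92.1 with VE-822 and 53.5 ± 3.28 CPM with DMSO, a rise of 1.02 ± 0.0605 (edgeR adjusted p = 5.50e-06), and rose by 0.28 ± 0.0487 in MP38 (edgeR adjusted p = 5.99e-05). FRMD6, a FERM protein held to act at the top of the cascade, fell in MP38 to 196 ± 2.05 CPM with VE-822, against 366 ± 4.65 CPM with DMSO (log2 fold change -0.91 ± 0.0361, edgeR adjusted p = 3.00e-14). Of the MST kinases, STK4 fell by 0.25 in 92.1 (SE 0.0433, edgeR adjusted p = 0.00219) and rose by 0.26 ± 0.0372 in MP38 (edgeR adjusted p = 5.12e-06). LATS1, the sister kinase of LATS2, fell in both lines, by 0.22 in 92.1 (SE 0.0482, edgeR adjusted p = 0.0069) and by 0.23 in MP38 (SE 0.0501, edgeR adjusted p = 0.000706). The kinase MAP4K4 rose in both, by 0.44 ± 0.0649 in 92.1 (edgeR adjusted p = 0.000854) and 0.16 ± 0.0394 in MP38 (edgeR adjusted p = 0.00221).

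The TEAD factors are the DNA-binding partners, and the VGLL proteins are cofactors that bind them too. Of 8 TEAD and VGLL genes, 7 were tested in 92.1, where 2 rose, 1 fell and 4 did not pass (2, 2 and 3 without DMSO library 3), and 5 in MP38, where 1 rose, 2 fell and 2 did not pass. Of all genes tested, 39.9% were called in 92.1 and 52.3% in MP38. TEAD1 fell in MP38 to 344 ± 17.3 CPM with VE-822, against 489 ± 8.42 CPM with DMSO (-0.51 ± 0.0407, edgeR adjusted p = 1.35e-09), and its value in 92.1 was 0.03 ± 0.0498 (edgeR adjusted p = 0.624). VGLL4, which competes with YAP for TEAD factors, rose by 0.28 ± 0.0593 in 92.1 (edgeR adjusted p = 0.00543) and fell by 0.34 in MP38 (SE 0.0425, edgeR adjusted p = 8.77e-07). VGLL3, a TEAD cofactor, had 148 to 157 reads per library in 92.1 with VE-822 and 3 to 27 with DMSO, a rise of 3.21 ± 0.454 (edgeR adjusted p = 0.00071). TEAD2 fell by 0.25 in 92.1 (edgeR adjusted p = 0.0229), where the groups overlapped. That call was lost without DMSO library 1 or 2 or VE-822 library 2 or 3 (adjusted p of 0.0627 to 0.097). It was also lost with scaling by library size only (0.0672) and in limma on log2(FPKM + 1) (0.0897).

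Along the Gq route, transcripts went opposite ways in the lines for some genes. Of 9 genes, 4 fell, none rose (0 also at an unadjusted p under 0.05) and 5 did not pass in 92.1 (7, 0 and 2 without DMSO library 3), and 5 rose, 3 fell and 1 did not pass in MP38. Over all genes tested, 19.6% were called lower in 92.1, and 26.9% were called higher and 25.4% lower in MP38. With scaling by library size only, RHOA, PTK2 and PAK1 lost their calls in 92.1 (adjusted p of 0.0594, 0.228 and 0.169), which left RAC1 as the gene called there, and PTK2 and ROCK1 lost theirs in MP38 (0.102 and 0.0879). RAC1, a GTPase of the actin skeleton, had 282 ± 3.85 CPM in 92.1 with VE-822 and 325 ± 8.91 CPM with DMSO, and 182 ± 3.59 CPM in MP38 with VE-822 and 147 ± 3.42 CPM with DMSO. It fell by 0.24 in 92.1 (SE 0.0432, edgeR adjusted p = 0.00243) and rose by 0.30 ± 0.0367 in MP38 (edgeR adjusted p = 7.24e-07). RHOA fell by 0.18 in 92.1 (SE 0.0443, edgeR adjusted p = 0.0116; 0.0715 without VE-822 library 2) and rose by 0.39 ± 0.0379 in MP38 (edgeR adjusted p = 2.49e-08). TRIO rose by 0.39 ± 0.0368 in MP38 (edgeR adjusted p = 1.73e-08) and was level in 92.1 at 0.0023 (95% interval -0.11 to 0.11). GNAQ and GNA11 fell slightly in MP38, by 0.13 (SE 0.0413, edgeR adjusted p = 0.011; 0.0592 in the fit of all 12 libraries) and 0.18 (SE 0.038, edgeR adjusted p = 0.000578). The calls of PTK2 and PAK1 in 92.1, both lower, were lost when any 1 of the 5 libraries other than DMSO library 3 was left out.

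Whether the response itself differed between the lines was tested in 1 fit of all 12 libraries, as the 92.1 response minus the MP38 response. Of 24958 genes, 40.9% were called, 22.1% with a positive and 18.8% with a negative difference, and the median difference of all genes was 0.11. WWTR1 (0.95 ± 0.145, edgeR adjusted p = 6.89e-05), NT5E (0.47 ± 0.136, edgeR adjusted p = 0.0112) and AXL (2.51 ± 0.298, edgeR adjusted p = 5.58e-06) had larger log2 responses in 92.1. CCN2 (-1.71 ± 0.354, edgeR adjusted p = 0.00108), ANKRD1 (-1.42 ± 0.461, edgeR adjusted p = 0.022) and LATS2 (-0.62 ± 0.061, edgeR adjusted p = 6.93e-07) had larger ones in MP38. The first 3 are the genes with the lower untreated level in 92.1, while untreated CCN2 and ANKRD1 were not called different between the lines. CCN1 differed by -0.04 (95% interval -0.22 to 0.14) and AMOTL2 by 0.09 (-0.10 to 0.28), and neither was called. Those intervals cover no more than the spread among these libraries. AJUBA was at 0.48 ± 0.195 (edgeR adjusted p = 0.0627; 0.70 and 2.72e-09 without DMSO library 3 of 92.1), and it was called with library size only (0.55, adjusted p = 0.0328) and with no filter on low counts (0.48, adjusted p = 0.0471). The CCN2 difference was -1.23 without that library and still passed. The call of ANKRD1 was lost without DMSO library 2 of 92.1, DMSO library 2 of MP38 or VE-822 library 1 of MP38 (adjusted p of 0.0557, 0.0555 and 0.0507), and that of NT5E without VE-822 library 1 or 2 of 92.1 (0.0616 and 0.0544).

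The untreated lines were compared as 92.1 over MP38 in the 6 DMSO libraries. Line, deposited table, depth and any library batch cannot be told apart here, and 79.9% of 22856 genes were called, 38.9% higher and 41.0% lower in 92.1. Of the 10 genes, 5 were higher in 92.1, 3 lower and 2 not called, which is near that background. WWTR1 had a log2 difference of -8.98 ± 0.155 (edgeR adjusted p = 2.33e-10), AXL had a difference of -6.79 ± 0.180 (edgeR adjusted p = 2.28e-09) and NT5E one of -2.19 ± 0.124 (edgeR adjusted p = 2.80e-07). The 3 genes that feed back on the pathway were higher in 92.1: AMOTL2 by 2.41 ± 0.0582, AJUBA by 2.39 ± 0.181 and LATS2 by 2.08 ± 0.0519 (edgeR adjusted p of 1.29e-09, 1.97e-06 and 1.57e-09). CCN1 was higher by 1.13 ± 0.0754 (edgeR adjusted p = 8.50e-07) and YAP1 by 0.27 ± 0.0525 (edgeR adjusted p = 0.00122). The YAP1 call was lost with scaling by library size only (0.06, adjusted p = 0.304), which moved the median of all genes to -0.24. CCN2 differed by 0.43 (95% interval -0.29 to 1.14) and ANKRD1 by -0.26 (-1.11 to 0.58); neither passed.

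In FPKM, the order of the 10 transcripts within a line therefore differed. In untreated 92.1 it ran from YAP1 (27.9 ± 1.29 FPKM; SD, n = 3) through AMOTL2 (16.1 ± 0.872), AJUBA (11.4 ± 3.35), LATS2 (9.96 ± 0.13) and CCN1 (3.62 ± 0.12) down to WWTR1 (0.0770 ± 0.021), ANKRD1 (0.0577 ± 0.011) and AXL (0.0117 ± 0.00321). AJUBA and LATS2 overlapped within their spread, as did WWTR1 and ANKRD1. In untreated MP38 it ran from WWTR1 (45.2 ± 1.08 FPKM) through YAP1 (26.8 ± 0.434), NT5E (8.56 ± 0.149), AMOTL2 (3.49 ± 0.088), LATS2 (2.72 ± 0.0478) and AJUBA (2.49 ± 0.124) down to ANKRD1 (0.0803 ± 0.026). ANKRD1 was the lowest of the 10 in MP38 and AXL the lowest in untreated 92.1.

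Around YAP and TAZ, 13 of the 21 Hippo genes were higher in untreated 92.1, 5 lower and 3 not called (14, 5 and 2 without DMSO library 3), beside 79.9% of all genes called, 38.9% higher and 41.0% lower. With library size only, NF2 was no longer called (0.06, adjusted p = 0.474), and STK4 and PTPN14 were called lower (adjusted p of 0.00157 and 0.00181). FRMD6 had 39.9 ± 3.07 CPM in untreated 92.1 and 366 ± 4.65 CPM in untreated MP38, a log2 difference of -3.21 ± 0.0664 (edgeR adjusted p = 5.82e-10). WTIP, of the same LIM family as AJUBA, had 30.5 ± 4.85 CPM in untreated 92.1 and 1.38 ± 0.111 CPM in untreated MP38 (4.45 ± 0.146, edgeR adjusted p = 7.88e-09). STK3 was higher in 92.1 by 1.69 ± 0.0562 (edgeR adjusted p = 8.53e-09). The TEAD genes differed too. TEAD1 had 164 ± 7.66 CPM in untreated 92.1 and 489 ± 8.42 CPM in untreated MP38 (-1.59 ± 0.052, edgeR adjusted p = 7.80e-09), TEAD2 was higher in 92.1 by 1.55 ± 0.0711 (edgeR adjusted p = 6.67e-08) and TEAD3 by 1.10 ± 0.116 (edgeR adjusted p = 2.10e-05), and TEAD4 was not called (0.03, 95% interval -0.22 to 0.28; 0.175 with an adjusted p of 0.00241 without DMSO library 3). Of the 9 genes of the Gq route, 7 were higher in 92.1, none was lower (0 also at an unadjusted p under 0.05) and 2 were not called (8, 0 and 1 without DMSO library 3), again beside 79.9% of all genes. That count depends on the scaling: with library size only, RHOA was called lower (-0.27, adjusted p = 0.000412), and TRIO and PAK1 were not called (adjusted p of 0.0932 and 0.713). GNAQ had 117 ± 4.19 CPM in untreated 92.1 and 46.2 ± 1.15 CPM in untreated MP38 (1.33 ± 0.0515, edgeR adjusted p = 2.21e-08), and RAC1 was higher in 92.1 by 1.13 ± 0.0486 (edgeR adjusted p = 4.27e-08). Of the 15 further targets, 5 were higher in 92.1, 9 lower and 1 not called.

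**Figure D4:**
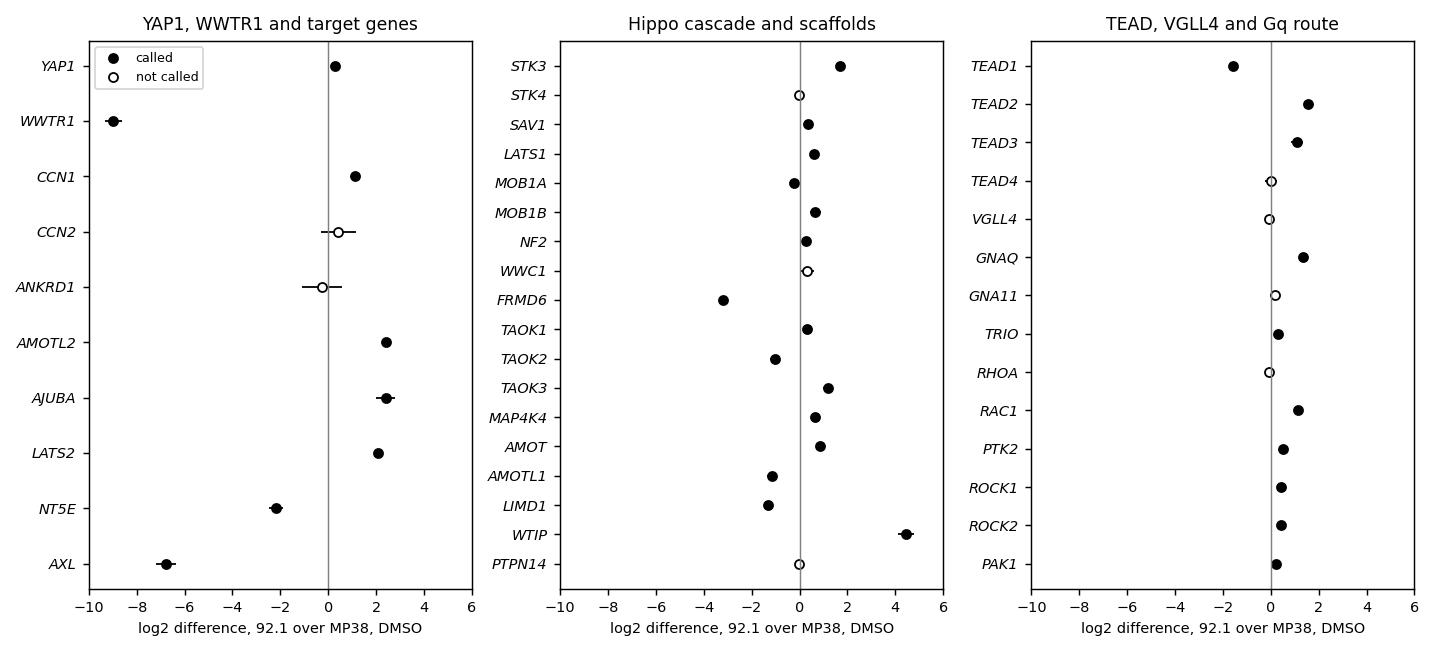
Log2 difference of 92.1 over MP38 in DMSO for the 10 genes, the other Hippo genes, and the TEAD, VGLL4 and Gq route genes, with 95% intervals; filled symbols passed the adjusted p of 0.05. WWTR1 and AXL lie farthest to the left, FRMD6 and TEAD1 are the leftmost of their panels and WTIP the rightmost.

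Genes whose levels followed the same course over the 12 libraries were found by the root mean square difference of centred log2 CPM among 10911 protein-coding genes. For CCN1 the 5 closest were SERTAD1 (0.282), SYTL2 (0.343), COBL (0.359), GIPR (0.362) and TP53INP2 (0.374), against a median of 0.925 over all genes searched. SERTAD1 had 17.0 CPM in 92.1 with VE-822 and 7.90 CPM with DMSO, and 10.7 CPM in MP38 with VE-822 and 4.61 CPM with DMSO. For YAP1, which hardly varied, the closest were SLC16A1 (0.033), RXYLT1 (0.0361), STMP1 (0.0372), TMEM168 (0.0386) and AP3M1 (0.0397), against a median of 0.382.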

How the data were processed

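Poly(A) RNA libraries (NEBNext Ultra II, per the labels' protocols) were processed by the authors with STAR 2.7.11a on GRCh38.p13, featureCounts 2.0.6, cutadapt 4.8, MultiQC 1.7 and FastQC 0.12.1, per the submitters' processing notes; parameters and strand setting are not given in the sources used here. The authors deposited 1 table of raw counts and 1 of FPKM values (counts per length and library total) for each line, per the file headers. From the counts, R 4.3.3 with edgeR 4.0.16 fitted a quasi-likelihood model with TMM scaling after filterByExpr (minimum count 10, minimum total 15), and the fit was tested on simulated data. Features had to be in both tables for the 2 comparisons across lines. Benjamini-Hochberg adjustment covered every gene of a fit, and errors of log2 fold changes are SE with 95% intervals. The SE was calculated back from the test, as the absolute log2 fold change divided by the square root of its F statistic. CPM used TMM factors over 12 libraries; profile likeness used log2(CPM + 0.5) for genes of at least 5 mean CPM. Promoter sequences came from RefSeq. DESeq2 1.42.0, limma 3.58.1 on log2(FPKM + 1), other scalings, filters and left-out libraries were alternatives. The 10 genes, the other lists and the tests were chosen with earlier results of these data known. Replicate numbers were not used to pair samples: deviations of same-numbered samples correlated by 0.0937 to 0.119 in 92.1 and -0.136 to -0.0255 in MP38. List genes were named as the 4 with the smallest adjusted p among those called in each comparison, with the TEAD, MST, LATS1 and Gq genes added by name, and the text gives a part of them.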

Additional observations from a re-analysis of the deposited data

Results flagged for a closer look

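The test of the difference in response between the lines (92.1 minus MP38, edgeR adjusted p in brackets) called 6 of the 10 genes, 3 in each direction, beside 40.9% of all genes tested. It also called 7 of the 21 Hippo genes with a positive and 5 with a negative difference, 3 and 1 of 7 TEAD and VGLL genes, and 1 and 5 of 9 genes of the Gq route; the 7 given below are a part of these, named after their values were seen. WWTR1 (0.95, adjusted p = 6.89e-05), NT5E (0.47, adjusted p = 0.0112) and AXL (2.51, adjusted p = 5.58e-06) had larger log2 responses in 92.1, from lower levels. With DMSO and then VE-822, mean WWTR1 was 0.692 and 2.01 CPM in 92.1, and 349 and 519 CPM in MP38. For NT5E these means were 7.94 and 22.3 CPM in 92.1, and 35.9 and 72.5 CPM in MP38. For AXL they were 0.064 and 0.692 CPM in 92.1, and 7.10 and 13.3 CPM in MP38. CCN2 (-1.71, adjusted p = 0.00108), ANKRD1 (-1.42, adjusted p = 0.022) and LATS2 (-0.62, adjusted p = 6.93e-07) had larger log2 responses in MP38.

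In the Hippo cascade, the difference was -0.48 for the kinase STK4 (adjusted p = 6.10e-06), 1.09 for FRMD6 (adjusted p = 8.66e-09) and 0.76 for AMOT (adjusted p = 1.99e-06). Among TEAD partners it was 0.58 for TEAD1 (adjusted p = 4.20e-06) and 0.66 for VGLL4 (adjusted p = 1.89e-06). On the Gq route it was -0.55 for RHOA (adjusted p = 2.00e-06) and -0.51 for RAC1 (adjusted p = 3.25e-06). The median difference over all genes was 0.11. None of these 7 genes, named after their values were seen, lost its call under the alternatives run for this test. ANKRD1 and NT5E lost theirs without single libraries. Other genes in the counts above also lost calls. LIMD1 and ROCK2 did so with DESeq2 (adjusted p of 0.107 and 0.0632), and VGLL3 without DMSO library 3 of MP38 (edgeR adjusted p = 0.284). With library size only, NF2, TEAD2, PTK2 and ROCK1 lost theirs (edgeR adjusted p of 0.0512, 0.0771, 0.0606 and 0.166).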

How the results depend on the processing

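In MP38 none of the 140 values of the 10 genes under other settings changed sign or call. In 92.1 the number of genes called lower was 3345 to 6899 when each library was left out in turn, and the number of the 10 genes called lower 0 to 1, the higher counts without DMSO library 3; for the 10 genes 2 values turned sign, 6 became called and 132 did neither. In the difference 6 turned sign, 5 lost and 4 gained a call and 165 did none of these; between untreated lines 2 turned, 1 lost its call and 124 did neither. YAP1 turned sign in 92.1 with library size only (0.0067) and with limma on FPKM (0.0074); in the difference it turned with library size only (0.0731), with no filter (0.0076) and without DMSO library 1 or 2 of 92.1 or VE-822 library 1 of MP38, with a range of -0.0859 to 0.0245 over single libraries left out. The CCN1 difference turned with library size only (0.039). Between untreated lines ANKRD1 turned without DMSO library 1 of MP38 (range -0.462 to 0.00685) and CCN2 without DMSO library 3 of 92.1 (range -0.0633 to 0.656); ANKRD1 was not tested when any DMSO library of 92.1 was left out. None of these values was called in the full data, and the cause was not tested.

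With the replicate number as a block, 8762 genes were called in 92.1, 10666 in MP38, 9882 in the difference and 17911 between untreated lines, and among the 10 genes 1 call changed, AJUBA in the difference (0.52, adjusted p = 0.0319). All 6 libraries of 92.1 correlated best with their own number and 0 of 6 in MP38, a hint from the data and not the design. At 5 to 29 reads per library, AXL in untreated 92.1 and ANKRD1 outside treated MP38 are limited by depth. Counting intervals cover counting error only.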
